A study of Mus musculus with 40 samples.

Results

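The interferon response genes described here are 43 genes that cells switch on when interferon reaches them, and they were picked by name: RNA sensors, the transcription factors of the pathway, and antiviral effectors. Of the 43, 42 are protein-coding genes in the annotation used, and Mx2, which is not annotated as protein-coding there, has no value below. A peak belonged to one of the 42 genes when the nearest protein-coding start site in mouse genome build mm10 was that gene's and lay within 50 kb, and 1456 of the 773134 peaks in 12 peak lists did so. A peak within 1 kb of a start site was called a promoter peak and any other a distal peak. Whether a gene's promoter was marked was read from all of its start sites.

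The lists map 2 histone marks in haematopoietic stem cells and haematopoietic progenitor cells sorted from mice of 21 days of age. H3K27ac marks active promoters and enhancers, and H3K4me1 marks enhancers, active or not, and the flanks of promoters. The mark was mapped by ChIPmentation, in which the transposase Tn5 tags the chromatin caught by the antibody. Wild type was set beside 5 mutant genotypes: Flt3-ITD (an internal tandem duplication that keeps the receptor kinase FLT3 signalling), NUP98-HOXD13 (a leukaemia fusion of a nuclear pore protein and a homeobox factor), Runx1-het, and the combined mutants Flt3-ITD/Runx1-het and also Flt3-ITD/NUP98-HOXD13. The source names of the Runx1-het groups join Runxf and Vav, and the labels name neither the alleles, nor what drives the transgenes, nor the animals behind a sample. Each list pooled the 3 or 4 samples of a group, with 4 in NUP98-HOXD13 for H3K27ac and in Flt3-ITD/NUP98-HOXD13 for both marks, so no spread between animals can be given and no test was run. Intervals are 95% Wilson intervals, which cover counting error only. Fold enrichment is the authors' value for a peak, and it ranks peaks within a list but measures no difference between lists. A missing peak means that none was listed, and read depth is unknown.

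The sorted populations carried the promoter marks of their label. H3K27ac promoter peaks stood at 10 to 12 of 12 genes of stem and progenitor cells (such as Kit, Cd34, Meis1 and Hlf) in each list. Markers of other cells were rarer: 1 or 2 of 7 granulocyte genes, 1 of 6 monocyte and macrophage genes, 1 or 2 of 6 genes of plasmacytoid dendritic cells, 0 or 1 of 5 of conventional dendritic cells, 1 or 2 of 5 B cell genes, 1 of 6 T cell genes, 0 to 2 of 5 NK cell genes, 0 to 2 of 6 erythroid genes, 2 to 4 of 5 megakaryocyte genes and 2 of 4 endothelial genes. None of 6 genes of tissues outside the blood had one. Of the 6 markers of plasmacytoid dendritic cells, the main makers of interferon alpha, Siglech, Ccr9, Klk1 and Irf8 had no H3K27ac promoter peak in any list, Tcf4 had one in all 6 (9.13 to 17.9) and Tlr7 in 3. Their part in the results was not tested.

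Type I interferons bind the receptor pair IFNAR1 and IFNAR2, whose kinases JAK1 and TYK2 switch on transcription factors, among them STAT2. STAT2 and IRF9 are parts of the complex ISGF3, which binds a short DNA element, the interferon-stimulated response element (ISRE). Interferon gamma acts through another element, the gamma-activated site (GAS). In the blood, interferon drives stem cells out of rest, and stem cells are known to keep some interferon response genes on without infection.

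The promoters of these genes show the elements through which the pathway acts. RefSeq windows from 250 bases before to 50 after the start site (build GRCm38.p6) were found for 33 of the 42 genes. The ISRE core was searched on both strands as a pair of GAAA repeats with any 2 bases between them, and 17 of the 33 genes (51.5%) held it, against 3.99% of 27025 genes with such windows. The GAS core, TTCNNNGAA, stood at 8 of the 33 genes (24.2%, against 9.55%), the joint ETS and IRF element (GGAA, any 2 bases, GAAA) at 3 (9.09%, against 3.16%) and the NF-kappaB element (GGGA, any 2 bases, TTCC) at 4 (12.1%, against 1.63%). The letters of the ISRE and joint elements overlap in part, and a match is a description of the letters, not a bound site. The 250 bases upstream of the RefSeq start site are shown for 6 genes with clustered ISRE cores, because they span those marked in every list (Isg15, Ifit1, Ifit3b, Bst2) and those marked in only some (Ifit3, Oas1a). The capitals are ISRE cores on either strand, and each window is written 5′ to 3′ on the strand of the gene.
Isg15 (chr4:156200819-156201068, minus strand): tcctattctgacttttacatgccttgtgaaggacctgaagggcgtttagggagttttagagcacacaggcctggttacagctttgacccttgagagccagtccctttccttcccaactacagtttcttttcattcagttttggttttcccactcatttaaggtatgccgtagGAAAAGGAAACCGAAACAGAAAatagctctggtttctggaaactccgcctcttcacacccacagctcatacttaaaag
Ifit1 (chr19:34640639-34640888, plus strand): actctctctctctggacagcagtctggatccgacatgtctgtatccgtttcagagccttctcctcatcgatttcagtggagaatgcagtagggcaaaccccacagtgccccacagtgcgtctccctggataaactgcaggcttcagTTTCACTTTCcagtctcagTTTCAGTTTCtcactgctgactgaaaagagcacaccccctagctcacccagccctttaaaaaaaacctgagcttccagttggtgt
Ifit3b (chr19:34607707-34607956, plus strand): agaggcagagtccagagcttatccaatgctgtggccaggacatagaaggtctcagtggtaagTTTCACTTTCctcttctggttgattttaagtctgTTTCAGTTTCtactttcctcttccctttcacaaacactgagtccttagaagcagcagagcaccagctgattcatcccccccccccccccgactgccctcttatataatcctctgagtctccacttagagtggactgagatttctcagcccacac
Bst2 (chr8:71537473-71537722, minus strand): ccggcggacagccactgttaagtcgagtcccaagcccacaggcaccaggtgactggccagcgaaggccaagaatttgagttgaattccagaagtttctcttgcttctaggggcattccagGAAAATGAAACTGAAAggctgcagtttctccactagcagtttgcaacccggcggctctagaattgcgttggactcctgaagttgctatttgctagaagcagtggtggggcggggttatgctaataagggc
Ifit3 (chr19:34583279-34583528, plus strand): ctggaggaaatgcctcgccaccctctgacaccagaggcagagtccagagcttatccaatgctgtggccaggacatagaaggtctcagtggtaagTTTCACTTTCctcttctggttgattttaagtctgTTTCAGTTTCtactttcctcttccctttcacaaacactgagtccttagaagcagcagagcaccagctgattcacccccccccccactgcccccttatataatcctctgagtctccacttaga
Oas1a (chr5:120907526-120907775, minus strand): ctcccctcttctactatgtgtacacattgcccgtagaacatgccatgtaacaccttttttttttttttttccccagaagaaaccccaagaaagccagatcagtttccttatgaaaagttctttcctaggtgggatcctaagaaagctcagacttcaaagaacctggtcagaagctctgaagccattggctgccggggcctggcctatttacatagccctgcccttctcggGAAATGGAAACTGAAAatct
Isg15 had 3 overlapping ISRE cores, starting 78, 72 and 66 bases upstream of the start site, and Bst2 and Oas1a had 2 overlapping ones each. In Ifit1 the cores lay on the other strand, 104 and 85 bases upstream. The Ifit3 and Ifit3b windows carried the same pair of cores. Shifted by 32 bases and compared without gaps, they were identical at 201 of 268 bases (75%). A run of C that differs in length puts the bases after it out of register, so 75% understates how alike the printed windows are. The calls at these 2 neighbouring copies are therefore uncertain where reads could not be told apart. Eif2ak2 held its core, GAAAACGAAA, 18 bases downstream of the start site. Irf1 had no ISRE core in its windows but a GAS, in capitals here, 90 bases upstream of the start site.
Irf1 (chr11:53769764-53770013, plus strand): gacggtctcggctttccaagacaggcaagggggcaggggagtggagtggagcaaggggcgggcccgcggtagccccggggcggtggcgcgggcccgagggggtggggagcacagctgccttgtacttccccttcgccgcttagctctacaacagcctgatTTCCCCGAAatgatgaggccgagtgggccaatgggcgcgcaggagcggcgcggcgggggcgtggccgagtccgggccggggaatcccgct
The letters did not separate the promoters that were marked everywhere: an H3K27ac promoter peak stood in all 6 lists at 12 of the 17 genes with an ISRE core and at 14 of the 16 without.

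Most of the interferon response genes carried H3K27ac at their promoters in every genotype, wild type included. In wild type 33 of the 42 genes (78.6%, interval 64.1 to 88.3%) had a promoter peak, against 39.4% of all 21851 protein-coding genes. The count was 34 in Runx1-het (39.4%), 40 in NUP98-HOXD13 (45.2%), 36 in Flt3-ITD (all genes 43%), 37 in Flt3-ITD/Runx1-het (46.2%) and 40 in Flt3-ITD/NUP98-HOXD13 (45.5%). The promoters of 31 genes (73.8%) were in all 6 lists, against 35.2% of all genes, and none of the 42 was in no list, against 50.5% of all genes. The other 11 genes were in 1 to 5 lists. Of all 21851 genes, 3126 (14.3%) were in 1 to 5 lists, 7689 in all 6 and 11036 in none. The 14.3% thus has many genes without any peak in its base, and it does not show that these 11 varied more than other marked promoters.

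**Figure D1:**
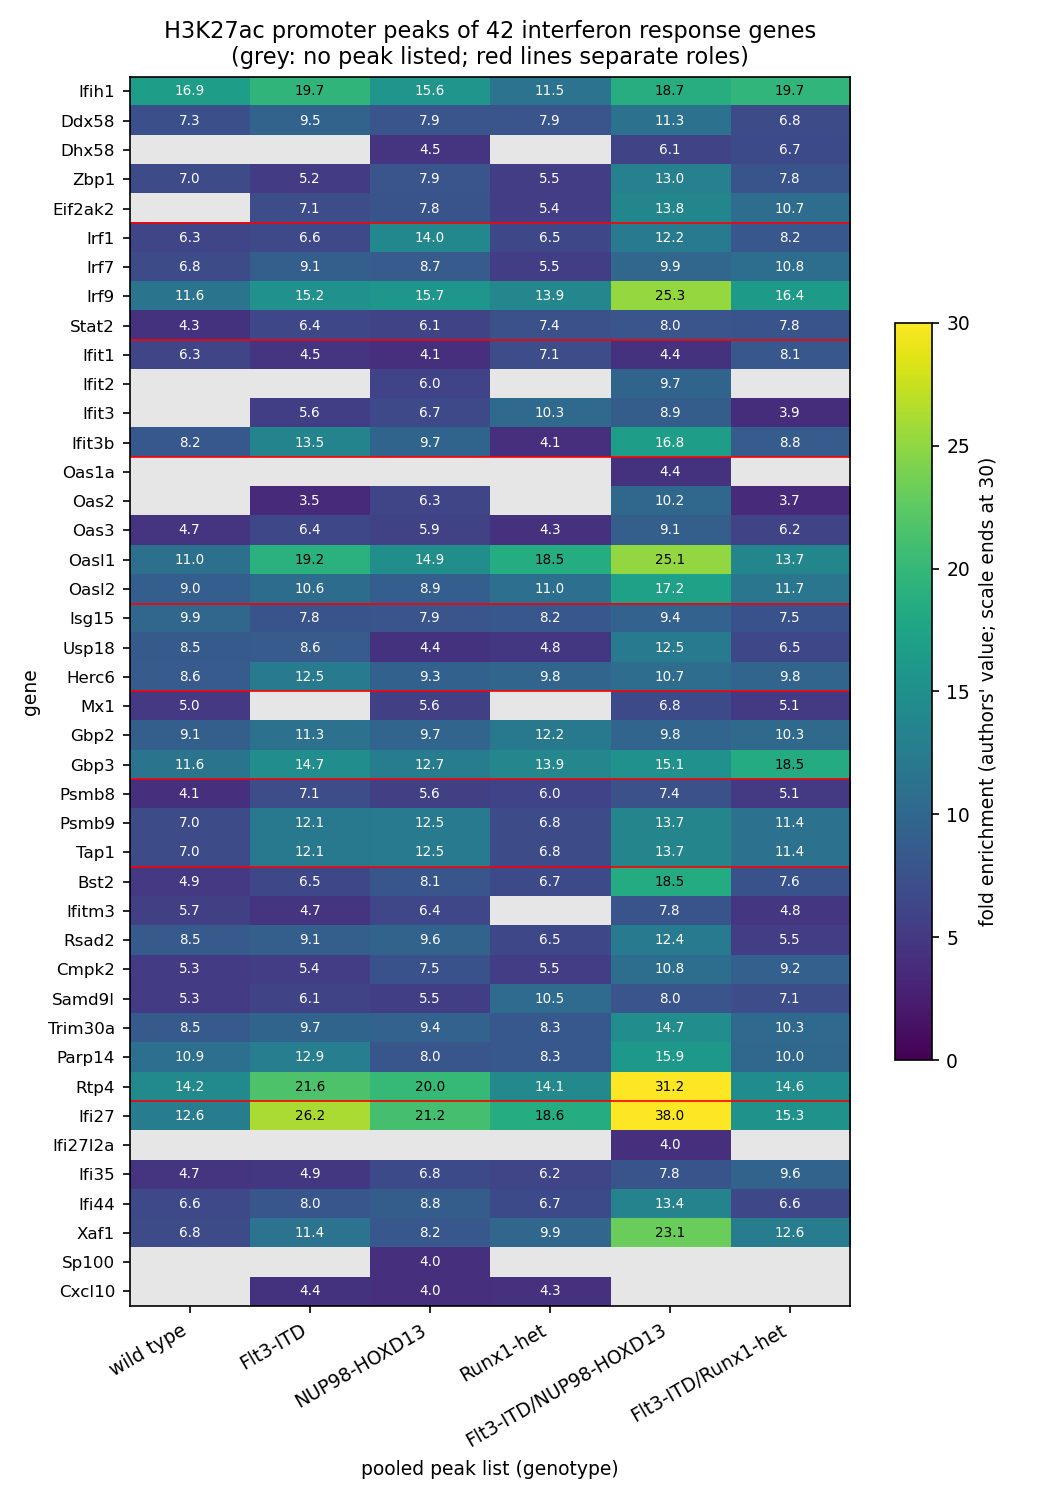
Fold enrichment of the H3K27ac promoter peak (colour and printed value) of each of 42 interferon response genes (rows, grouped by role) in each pooled peak list (columns); grey cells have no listed promoter peak. Eif2ak2 and Ifit3 are grey in wild type alone, and Oas1a and Ifi27l2a are filled in Flt3-ITD/NUP98-HOXD13 alone. The Ifi27l2a peak was not kept at −log10 q of at least 5. The pattern of Eif2ak2 and Ifit3 was held by 2 of 43 promoter regions of the genes (4.65%), near the 4.11% of all promoter regions.

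Among the RNA and nucleic acid sensors, Ifih1, which encodes the long double-stranded RNA sensor MDA5, had one of the strongest promoters of the set. Its fold enrichment was 16.9 in wild type, 11.5 in Runx1-het, 15.6 in NUP98-HOXD13, 19.7 in Flt3-ITD, 19.7 in Flt3-ITD/Runx1-het and 18.7 in Flt3-ITD/NUP98-HOXD13. Ddx58, the gene of the sensor RIG-I, ranged from 6.83 to 11.3, and Zbp1, whose protein binds Z-form nucleic acid and can start necroptosis, from 5.25 to 13.0. The 2 remaining sensors were in only some of the lists. Dhx58, which encodes LGP2, a regulator of both RNA sensors, had a promoter peak of 6.73 in Flt3-ITD/Runx1-het, 4.49 in NUP98-HOXD13 and, with Flt3-ITD/NUP98-HOXD13, 6.13, and none in wild type or the single mutants Flt3-ITD and Runx1-het. Peaks of the same merged region lay beyond 1 kb of the Dhx58 start site in wild type (3.42) and Flt3-ITD (5.25), and with promoters taken as 2 kb these lists counted too. Eif2ak2 encodes PKR, the kinase that stops translation when it meets double-stranded RNA. Its promoter was at 5.42 in Runx1-het, 7.85 in NUP98-HOXD13, 7.08 in Flt3-ITD, 10.7 in Flt3-ITD/Runx1-het and 13.8 in Flt3-ITD/NUP98-HOXD13, and wild type had no peak there. The Eif2ak2 peak region spanned chr17:78881312-78883391 and covered its start site.

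The transcription factors of the pathway were marked in every list. Irf9, the DNA-binding part of ISGF3, had a fold enrichment of 11.6 in wild type, 13.9 in Runx1-het, 15.7 in NUP98-HOXD13, 15.2 in Flt3-ITD, 16.4 in Flt3-ITD/Runx1-het and 25.3 in Flt3-ITD/NUP98-HOXD13. Stat2, its partner, ranged from 4.34 (wild type) to 7.96 (Flt3-ITD/NUP98-HOXD13), and Irf7, which amplifies interferon alpha production, from 5.52 (Runx1-het) to 10.8 (Flt3-ITD/Runx1-het). Irf1, a transcription factor induced by interferon gamma, stood at 6.25 in wild type, 6.46 in Runx1-het, 13.98 in NUP98-HOXD13, 6.62 in Flt3-ITD, 8.16 in Flt3-ITD/Runx1-het and 12.2 in Flt3-ITD/NUP98-HOXD13, and the 2 lists with the fusion also held its highest percentiles among promoters, 69.4 in NUP98-HOXD13 and 44.2 in the double mutant.

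The IFIT genes, whose proteins bind viral RNA with abnormal caps, lie side by side on chromosome 19 and differed from one another. Ifit3b was in all 6 lists, at 8.23 in wild type, 4.07 in Runx1-het, 9.69 in NUP98-HOXD13, 13.5 in Flt3-ITD, 8.78 in Flt3-ITD/Runx1-het and 16.8 in Flt3-ITD/NUP98-HOXD13. Its near copy Ifit3 had no peak in wild type and stood at 10.3 in Runx1-het, 6.65 in NUP98-HOXD13, 5.59 in Flt3-ITD, 3.88 in Flt3-ITD/Runx1-het and 8.87 in Flt3-ITD/NUP98-HOXD13. The higher value of the pair was at Ifit3 in Runx1-het and at Ifit3b in the other 4 mutant lists, but reads of the 2 copies may not have been told apart. Ifit2 had a promoter peak in NUP98-HOXD13 (6.01) and Flt3-ITD/NUP98-HOXD13 (9.65) and in no list without the fusion. Counted by merged regions, both fusion lists and no other held 2 of 43 promoter regions of the genes (4.65%, at Ifit2 and Psmb8), against 1.33% of all. A region that began 859 bases into Ifit2 was also held by Flt3-ITD (5.07) and Flt3-ITD/Runx1-het (4.42), with peaks that began beyond 1 kb, and with promoters taken as 2 kb these lists counted too. Ifit1 was in all lists and among the weakest of the 31, from 4.05 in the NUP98-HOXD13 list up to 8.09 in Flt3-ITD/Runx1-het. A start site of another gene, Ifit1bl2, lies within 1 kb of that of Ifit1, so this peak may be shared.

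The OAS genes make the messenger that activates RNase L. Oas1a was listed in Flt3-ITD/NUP98-HOXD13 alone, at 4.37. Oas2 had a promoter peak at 6.27 in NUP98-HOXD13, 3.53 in Flt3-ITD, 3.70 in Flt3-ITD/Runx1-het and 10.2 in Flt3-ITD/NUP98-HOXD13, and none in wild type and Runx1-het. Oas3 was in every list but low, from 4.31 (Runx1-het) to 9.13 (Flt3-ITD/NUP98-HOXD13). Oasl1, which restrains IRF7 translation, and Oasl2 were the strongest of the family: Oasl1 ranged from 11.05 (wild type) to 25.1 (Flt3-ITD/NUP98-HOXD13) and Oasl2 from 8.93 to 17.2.

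ISG15 is a ubiquitin-like protein, Herc6 encodes its ligase in the mouse, and USP18 removes it and damps the receptor. All 3 promoters were in every list. Isg15 stood at 9.94 in wild type, 8.17 in Runx1-het, 7.91 in NUP98-HOXD13, 7.80 in Flt3-ITD, 7.52 in Flt3-ITD/Runx1-het and 9.39 in Flt3-ITD/NUP98-HOXD13. Usp18 ranged from 4.38 (NUP98-HOXD13) to 12.5 (Flt3-ITD/NUP98-HOXD13), and Herc6 from 8.62 to 12.5.

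Mx1, a GTPase that blocks influenza virus, was the one gene of the set with a promoter peak in wild type that both Flt3-ITD and Runx1-het lacked. It stood at 5.0 in wild type, 5.13 in Flt3-ITD/Runx1-het, 5.64 in NUP98-HOXD13 and, with Flt3-ITD/NUP98-HOXD13, 6.78. The guanylate-binding proteins Gbp2 (9.07 to 12.2) and Gbp3 (11.6 to 18.5), which attack the vacuoles of intracellular microbes, were in every list.

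Psmb9 and Tap1, a subunit of the immunoproteasome and the transporter that carries its peptides, start on opposite strands from 1 shared promoter, so their values are those of 1 peak. That peak was at 6.98 in wild type, 6.83 in Runx1-het, 12.5 in NUP98-HOXD13, 12.1 in Flt3-ITD, 11.4 in Flt3-ITD/Runx1-het and 13.7 in Flt3-ITD/NUP98-HOXD13. Psmb8, the neighbouring immunoproteasome subunit, was among the 3 lowest of the 31, from 4.07 (wild type) to 7.44 (Flt3-ITD/NUP98-HOXD13).

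Among membrane and restriction factors, Bst2 encodes tetherin, which holds budding virus at the cell surface. Its promoter was at 4.94 in wild type, 6.69 in Runx1-het, 8.07 in NUP98-HOXD13, 6.52 in Flt3-ITD, 7.61 in Flt3-ITD/Runx1-het and 18.5 in Flt3-ITD/NUP98-HOXD13. Ifitm3, which blocks virus entry through endosomes, was missing from Runx1-het alone, with 5.69 in wild type, 6.38 in NUP98-HOXD13, 4.65 in Flt3-ITD, 4.79 in Flt3-ITD/Runx1-het and 7.83 in Flt3-ITD/NUP98-HOXD13. Rtp4 was among the 3 strongest promoters: it stood at 14.2 in wild type, 14.1 in Runx1-het, 20.04 in NUP98-HOXD13, 21.6 in Flt3-ITD, 14.6 in Flt3-ITD/Runx1-het and 31.2 in Flt3-ITD/NUP98-HOXD13. Rtp4 has 4 start sites, its strongest peak over all of them was taken, and a start site of Masp1 lies within 1 kb. The values may thus be those of a peak shared with Masp1. Rsad2 (viperin, which makes a chain-terminating nucleotide) and its neighbour Cmpk2 (a mitochondrial nucleotide kinase) ranged from 5.49 to 12.4 and from 5.33 to 10.8. Samd9l, a restraint on myeloid growth, ranged from 5.33 to 10.51, Trim30a from 8.29 to 14.7 and Parp14, an ADP-ribosyltransferase, from 7.99 to 15.9.

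In the remaining group Ifi27, a small mitochondrial protein's gene, had the highest value of the set. It stood at 12.6 in wild type, 18.6 in Runx1-het, 21.2 in NUP98-HOXD13, 26.2 in Flt3-ITD, 15.3 in Flt3-ITD/Runx1-het and 37.95 in Flt3-ITD/NUP98-HOXD13. Its relative Ifi27l2a was listed in Flt3-ITD/NUP98-HOXD13 alone, at 4.05, a peak not kept at −log10 q of at least 5. Xaf1, a partner of the apoptosis inhibitor XIAP, ranged from 6.82 (wild type) to 23.1 (Flt3-ITD/NUP98-HOXD13), Ifi44 from 6.55 to 13.4 and Ifi35 from 4.67 to 9.58. Cxcl10, a chemokine that draws activated T cells, had a weak promoter peak in the 3 single mutants, at 4.31 in Runx1-het, 4.0 in NUP98-HOXD13 and 4.39 in Flt3-ITD, and none in wild type or the double mutants. Sp100, a protein of PML nuclear bodies, had a promoter peak in NUP98-HOXD13 alone (4.0). With the full GENCODE transcript set, which adds a start site inside Sp100, it had a stronger one in all 6 lists, from 12.6 (NUP98-HOXD13) to 18.5 (Flt3-ITD), so its call depends on which start sites are counted.

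Set out by comparison, promoter gains outnumbered losses in most cases. Against wild type, Flt3-ITD gained 4 promoters (Eif2ak2, Ifit3, Oas2 and Cxcl10), where 5.18% of all genes gained one, and lost Mx1 (1.58% of all genes). NUP98-HOXD13 gained 7 (Dhx58, Eif2ak2, Ifit2, Ifit3, Oas2, Sp100 and Cxcl10; 7.1% of all genes) and lost 0 (1.3%). Its Dhx58 peak, like those of both double mutants, belonged to a merged region that wild type also held, and at −log10 q of at least 5 its Dhx58, Sp100 and Cxcl10 promoter peaks were not kept. Runx1-het gained 3 (Eif2ak2, Ifit3 and Cxcl10; 3.39%) and lost 2, Mx1 and Ifitm3 (3.38%). Flt3-ITD/NUP98-HOXD13 gained 7 (Dhx58, Eif2ak2, Ifit2, Ifit3, Oas1a, Oas2 and Ifi27l2a; 7.3%) and lost 0 (1.15%), and Flt3-ITD/Runx1-het gained Dhx58, Eif2ak2, Ifit3 and Oas2 (7.78%) and lost 0 (1.01%). These 5 comparisons share the wild-type list, in which H3K27ac peaks were narrow: the median width of promoter peaks over all genes with one was 1043 bp in wild type and 1567 to 1944 bp in the mutants. At a stricter peak threshold, −log10 q of at least 5, 28 of the genes kept a promoter peak in wild type, the mutants kept 31 to 39, and 26 were in all 6 lists, as were 6235 of all 21851 genes (7689 without that threshold). Among the gains, that threshold also removed the Oas2 peaks of Flt3-ITD and Flt3-ITD/Runx1-het and the Ifit3 peak of Flt3-ITD/Runx1-het. It removed the Cxcl10 peak of Runx1-het and the Ifi27l2a peak of Flt3-ITD/NUP98-HOXD13 too. Wild type did not keep its Stat2, Oas3, Mx1, Psmb8 and Ifi35 peaks.

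Adding Flt3-ITD to NUP98-HOXD13 changed few promoters. Flt3-ITD/NUP98-HOXD13 gained Oas1a and Ifi27l2a against NUP98-HOXD13 (1.79% of all genes gained one) and lost Sp100 and Cxcl10 (1.44%). Adding Flt3-ITD to Runx1-het gave Dhx58, Oas2, Mx1 and Ifitm3 a promoter peak (7.41% of all genes), and Cxcl10 had none in the double mutant (0.654%). The Oas2 peak of Flt3-ITD/Runx1-het and the Cxcl10 peak of Runx1-het were not kept at −log10 q of at least 5.

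Since fold enrichment cannot be set side by side between lists, each gene's place within its list was used: its percentile by fold enrichment among the 7689 genes with an H3K27ac promoter peak in all 6 lists, the 31 interferon response genes included. All 7689 genes have a median percentile of 50 by construction. The 31 genes sat below that in every list, with a median of 42.1 in wild type, 31 in Runx1-het, 36.7 in NUP98-HOXD13, 39.6 in Flt3-ITD, 34.3 in Flt3-ITD/Runx1-het and 48.4 in Flt3-ITD/NUP98-HOXD13. These percentiles compare the genes with other promoters marked in every list, not with all promoters of a list.

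Flt3-ITD/NUP98-HOXD13 was the list in which the largest number of these promoters ranked highest. Of the 31, 13 (41.9%) had their highest percentile of the 6 there, against 13.9% of all genes. The 13 were Zbp1, Irf9, Ifit3b, Oas3, Oasl1, Oasl2, Bst2, Cmpk2, Trim30a, Rtp4, Ifi27, Ifi44 and Xaf1, and the peak of Rtp4 may be shared with Masp1. Wild type held the highest percentile of 7 (22.6%, all genes 21.6%), Flt3-ITD of 2 (12.6% of all genes), and NUP98-HOXD13, Runx1-het and Flt3-ITD/Runx1-het of 3 each (15.8%, 15.7% and 20.4% of all genes). Those of NUP98-HOXD13 were Irf1, Psmb9 and Tap1, and Psmb9 and Tap1 share 1 peak that is counted for each gene. The lowest percentile of a gene fell in wild type for 2 of the 31 (22.0% of all genes) and in Flt3-ITD/Runx1-het for 9 (18.5%).

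Ifit3b and Bst2 had the widest ranges of percentiles over the 6 lists, though at Ifit3b reads of its near copy Ifit3 may not have been told apart. Ifit3b stood at 49.7 in wild type, 3.6 in Runx1-het, 44 in NUP98-HOXD13, 60.3 in Flt3-ITD, 28.1 in Flt3-ITD/Runx1-het and 64.6 in Flt3-ITD/NUP98-HOXD13. The percentile of Bst2 was 14.9 in wild type, 24.2 in Runx1-het, 30.8 in NUP98-HOXD13, 17.2 in Flt3-ITD, 19.0 in Flt3-ITD/Runx1-het and 70.4 in Flt3-ITD/NUP98-HOXD13. Xaf1 was at the 81.6th percentile in Flt3-ITD/NUP98-HOXD13 and between 31.8 and 53.7 in the other lists. Not all genes followed. Isg15 was highest in wild type, at 63.0, and between 18.7 and 37.0 in the mutants, and Ifit1 stood at 1.55 in Flt3-ITD/NUP98-HOXD13 and at 29.8 in wild type.

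Peak width, another readout of the same lists, also put the most genes highest in Flt3-ITD/NUP98-HOXD13. By width 15 of the 31 genes (48.4%) ranked highest in Flt3-ITD/NUP98-HOXD13, against 11.1% of all genes. Their median promoter peak was 2609 bp wide there against 2215 bp over all 7689 genes, and no wider than the median of all genes in the other 5 lists: 1020 against 1198 bp in wild type, 1703 against 2045 in Flt3-ITD, 1799 against 1814 in NUP98-HOXD13, 1647 against 1779 in Runx1-het and 1760 against 1892 in Flt3-ITD/Runx1-het. The Flt3-ITD/NUP98-HOXD13 and NUP98-HOXD13 H3K27ac lists were both pooled from 4 samples and the others from 3, and whether the number of samples bears on a gene's place was not tested.

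**Figure D2:**
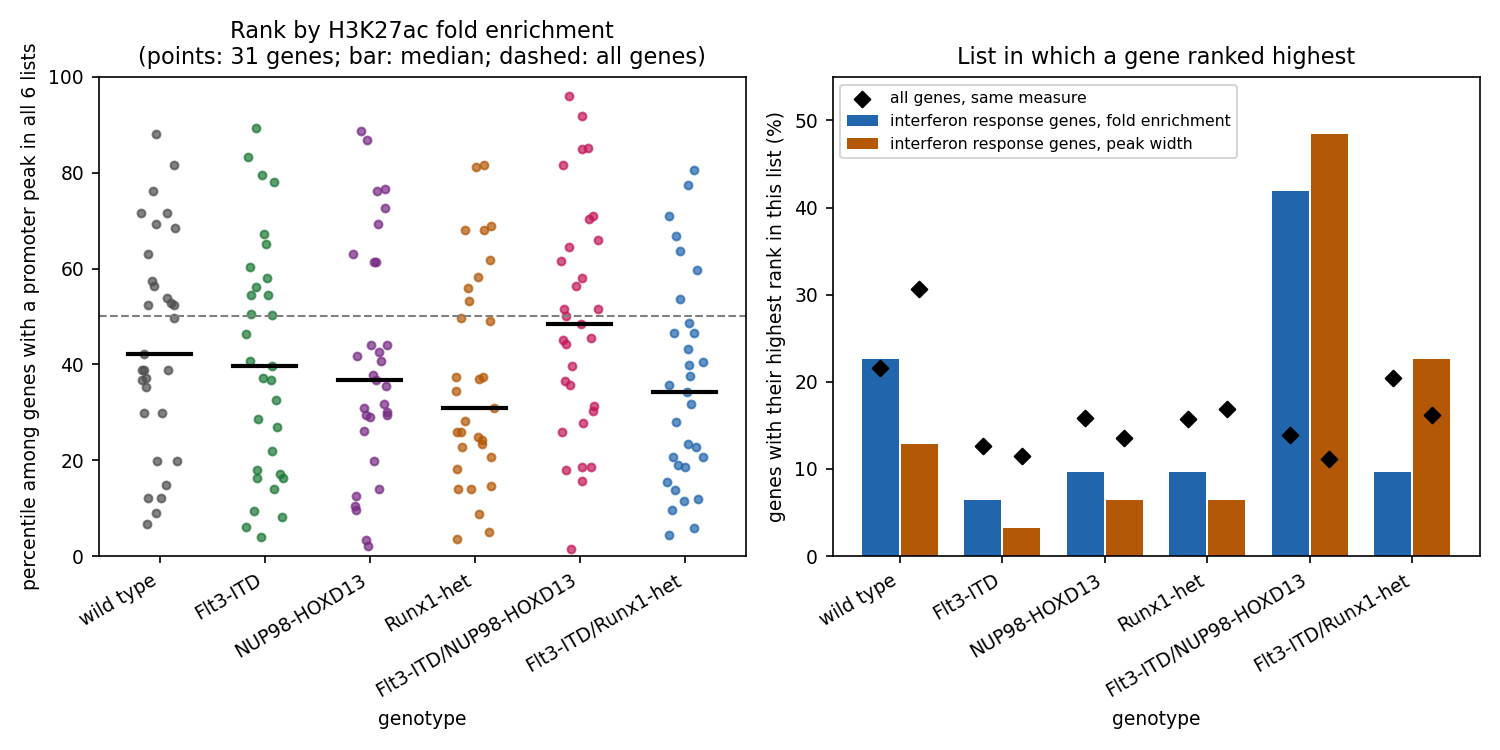
Left, percentile (0 to 100) by H3K27ac fold enrichment of 31 interferon response genes (points, bar at their median) among 7689 genes with a promoter peak in all 6 lists, per genotype; right, share of genes (%) whose highest percentile falls in each list, by fold enrichment or peak width (bars, interferon response genes; diamonds, all genes). The bars of Flt3-ITD/NUP98-HOXD13 reach 41.9% and 48.4%, over diamonds at 13.9% and 11.1%.

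H3K4me1 was less frequent at these promoters and stood in all lists at fewer of them. Promoter peaks stood at 18 of 42 genes in wild type (20.8% of all genes), 18 in Runx1-het (20.7%), 21 in NUP98-HOXD13 (28.7%), 27 in Flt3-ITD (27.9%), 25 in Flt3-ITD/Runx1-het (30.1%) and 24 in Flt3-ITD/NUP98-HOXD13 (30.3%). Only Irf1, Ifit1, Oas3, Gbp2, Gbp3 and Rsad2 had one in all 6 lists (6.82% of all genes), and 7 genes had none in any list (50.5%): Dhx58, Oas1a, Psmb9, Parp14, Ifi35, Xaf1 and Sp100. Zbp1, Ifit3b and Psmb8 had an H3K4me1 promoter peak in all 5 mutants and not in wild type. Counted by merged regions, this pattern was held by 5 of 71 promoter regions of the genes (7.04%), against 3.41% of all. Ifit3b stood at 4.67 in Runx1-het, 7.66 in NUP98-HOXD13, 4.41 in Flt3-ITD, 5.14 in Flt3-ITD/Runx1-het and 6.32 in Flt3-ITD/NUP98-HOXD13. In the same order of lists Zbp1 stood at 3.72, 3.79, 4.92, 4.06 and 5.09, and Psmb8 at 4.21, 4.90, 3.28, 5.48 and 6.29. At −log10 q of at least 5 the H3K4me1 promoter share fell to between 7.14 and 19.0% of the 42 genes, so most of these peaks were weak.

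Distal regions were formed by merging the peaks of the 6 lists that overlapped. Near the 42 genes there were 88 distal H3K27ac regions, 63 downstream and 25 upstream of the nearest start site, and 35 of them within 5 kb. Only 8 (9.09%, all distal regions 12%) were in all 6 lists, and 58 (65.9%, all distal regions 58.3%) were in 1 list. Cmpk2, Dhx58, Herc6, Ifi27, Ifi27l2a, Ifit2, Ifit3b, Isg15, Oas1a, Oasl2 and Psmb9 had no distal H3K27ac region, although Dhx58, Ifit2, Ifit3b and Oasl2 had distal peaks in some lists that merged into promoter regions. The genes with the most were Ddx58 and Sp100 with 8 each, Rsad2 with 7, and Ifih1, Ifitm3 and Usp18 with 6 each, and 31 of these 41 regions stood in 1 list alone. Of the 8 at Sp100, 6 stood in 1 list. Sp100 lies in a repeated family, and whether reads there could be told apart was not tested.

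The 8 constant distal H3K27ac regions lay near 6 genes. Ifitm3 had 2 of them. The first, chr7:140988381-140993907, 16.9 kb downstream of Ifitm3, was the strongest distal region of the set, at 8.92 in wild type, 14.1 in Runx1-het, 13.9 in NUP98-HOXD13, 22.2 in Flt3-ITD, 13.3 in Flt3-ITD/Runx1-het and 17.8 in Flt3-ITD/NUP98-HOXD13. The second, 10.4 kb downstream of Ifitm3, ranged from 5.71 to 9.44. Irf1 had one 20.8 kb upstream (4.40 to 7.14) and one 4.79 kb upstream (5.58 to 9.90). Cxcl10 had one 3.99 kb upstream (5.54 to 10.6) although its promoter was unmarked in 3 lists, and Irf7 one 1.30 kb upstream (2.70 to 5.74). The regions in Sp100 (3.32 to 4.67) and Trim30a (6.91 to 11.3) lay inside the gene, 36.8 and 18 kb from its start site. H3K4me1 lay over 5 of the 8 in every list.

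**Figure D3:**
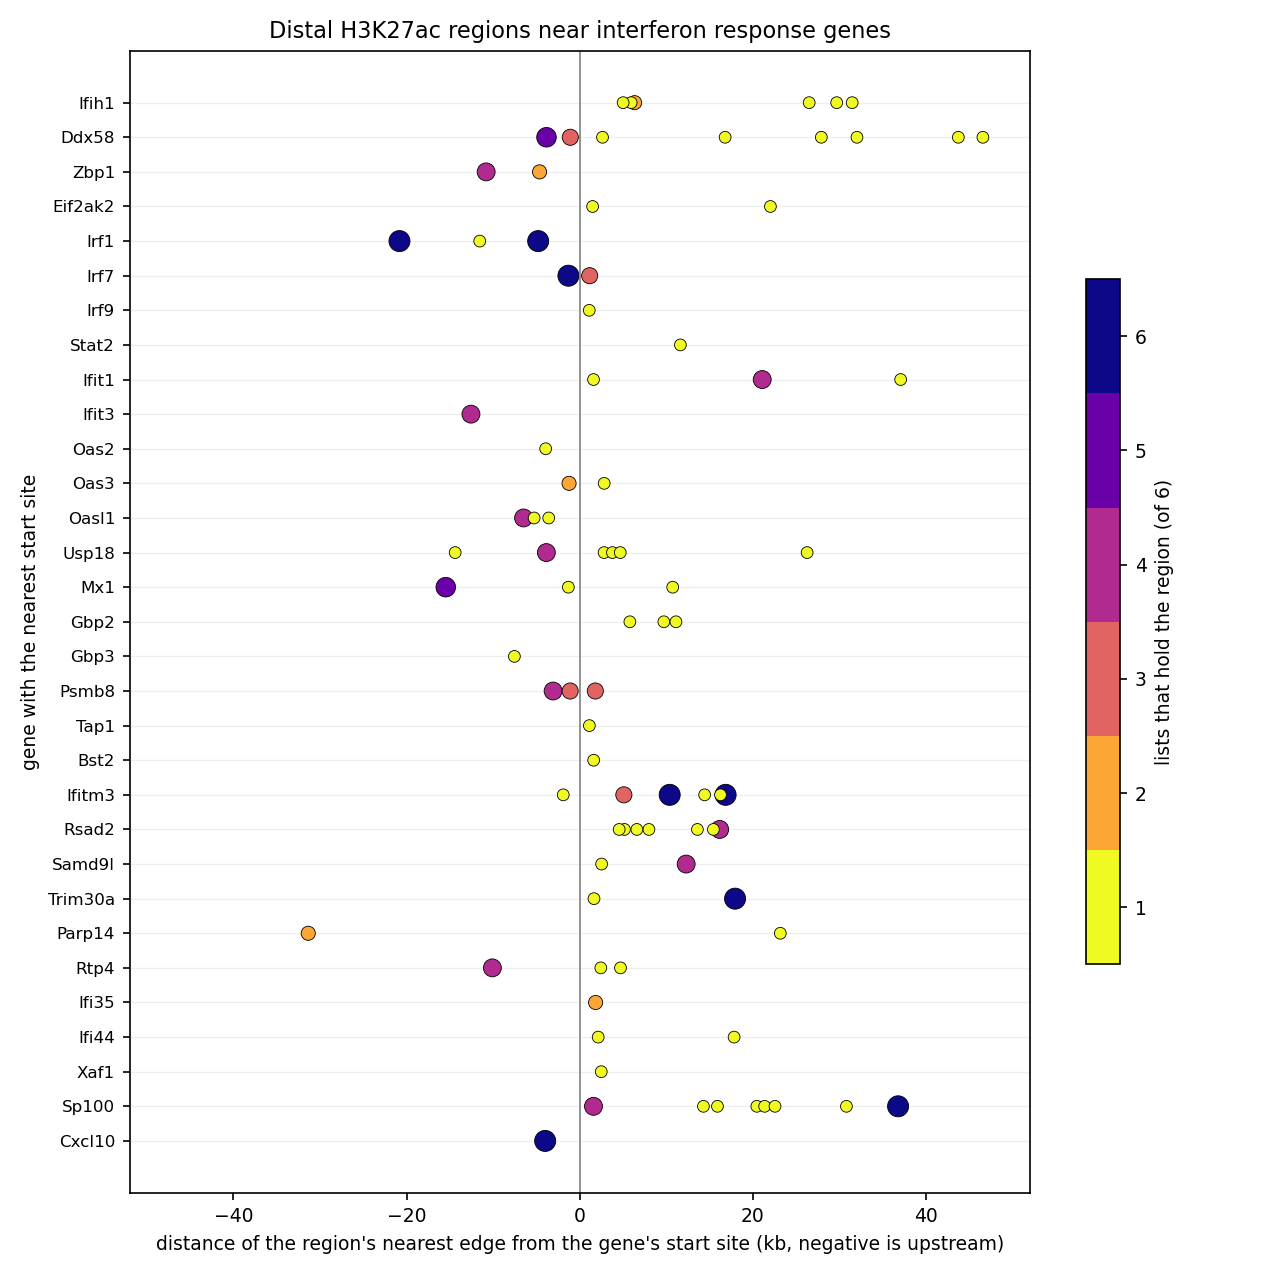
Distance of each distal H3K27ac region from the start site of its interferon response gene (x axis, kb, negative is upstream) by gene (y axis); colour and point size give how many of the 6 lists hold the region. Points for 6 lists stand at Irf1, Irf7, Ifitm3, Trim30a, Sp100 and Cxcl10, and 58 of the 88 points stand for 1 list.

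A few distal H3K27ac regions followed 1 genotype factor exactly. A region 5.11 kb downstream of Ifitm3 (chr7:141005002-141005663) was held by the 3 lists with Flt3-ITD and by no other, at 4.56 in Flt3-ITD, 4.24 in Flt3-ITD/Runx1-het and 3.92 in Flt3-ITD/NUP98-HOXD13. H3K4me1 lay over it in all 6 lists, between 5.94 and 7.32. The other such region lay in Psmb8 (chr17:34199598-34200248), 1.81 kb from its start site, at 4.73 in Flt3-ITD, 3.94 in Flt3-ITD/Runx1-het and 3.92 in Flt3-ITD/NUP98-HOXD13, with no H3K4me1 in any list. These were 2 of 88 distal regions (2.27%), against 0.825% of all distal H3K27ac regions.

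Both lists with NUP98-HOXD13, and no other, held a region 4.63 kb upstream of Zbp1 (chr2:173223555-173224977), at 4.25 in NUP98-HOXD13 alone and at 7.70 with Flt3-ITD/NUP98-HOXD13. That was 1 of 88 (1.14%), against 1.44% of all distal regions. At Zbp1 too, H3K4me1 covered the region in all 6 lists, from 3.41 to 6.60. The 4 lists without the fusion, and no other, held a region in Samd9l (chr6:3386214-3387268; 0.483% of all distal regions), at 5.66 in wild type, 3.59 in Runx1-het, 3.87 in Flt3-ITD and 4.95 in Flt3-ITD/Runx1-het. H3K4me1 stood there in all 6 lists as well, from 4.76 to 5.94, so at Ifitm3, Zbp1 and Samd9l the listed acetylation differed between genotypes over an H3K4me1 region listed in each of them.

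The Runx1-het factor showed the same layout at Ifih1 and Usp18. Both Runx1-het lists and no other held a region in Ifih1 (chr2:62639267-62639805; 0.675% of all distal regions), at 4.08 in Flt3-ITD/Runx1-het and at 4.23 in Runx1-het, though Flt3-ITD had a peak of 4.43 directly beside it (chr2:62639854-62640206). The 4 lists without Runx1-het held a region 3.85 kb upstream of Usp18 (chr6:121241352-121242058; 0.295%), at 4.01 in wild type, 3.60 in NUP98-HOXD13, 4.83 in Flt3-ITD and 4.80 in Flt3-ITD/NUP98-HOXD13. H3K4me1 was listed at both in all 6 lists, from 4.09 to 8.40 at Ifih1 and from 4.48 to 9.11 at Usp18. Apart from these, a region 12.6 kb upstream of Ifit3 (chr19:34569392-34570971) was held by 4 mutant lists, at 7.29 in NUP98-HOXD13, 3.80 in Flt3-ITD, 4.59 in Flt3-ITD/Runx1-het and 7.49 in Flt3-ITD/NUP98-HOXD13. It was named after its values were seen.

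Gains and losses of distal H3K27ac are given as the share of gained regions among those held by 1 list of a pair. Flt3-ITD gained 21 distal regions near the genes against wild type and lost 14, a gained share of 60.0% (43.6 to 74.4%), with 48.3% over all distal regions. Of all distal regions, 32.2% were gained and 34.5% lost. NUP98-HOXD13 gained 10 and lost 16 (38.5%, all 40.9%; of all distal regions 27.8% gained and 40.1% lost), and Runx1-het gained 12 and lost 16 (42.9%, all 40.2%; 27.6% gained and 41.1% lost). The NUP98-HOXD13 and Runx1-het shares stood near those of all distal regions. With equal-length lists the Flt3-ITD share was 75% and with −log10 q of at least 5 it was 91.7% (11 of 12). The same settings put the NUP98-HOXD13 share at 52.6% and 60.0% and the Runx1-het share at 61.9% and 75%, on the other side of 50%. Shares over all distal regions were not computed under these settings.

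Against wild type, both double mutants gained more distal H3K27ac regions near these genes than they lost. Flt3-ITD/NUP98-HOXD13 gained 25 and lost 15 (62.5%, 47.0 to 75.8%, against 46.3% of all; 31.3% of all distal regions gained and 36.2% lost), and Flt3-ITD/Runx1-het gained 25 and lost 13 (65.8%, 49.9 to 78.8%, against 55.6%; 39.0% gained and 31.1% lost). In Flt3-ITD/NUP98-HOXD13 the most gains were at Rsad2, with 4 regions, and at Psmb8, with 3 regions, 1 of them at its promoter. In Flt3-ITD/Runx1-het they were at Sp100, with 4 regions. Of the 15 losses in Flt3-ITD/NUP98-HOXD13, 3 were at Ifih1, 3 at Ddx58 and 2 at Gbp2, and the 3 in Ifih1 were in wild type alone, at 3.35 to 3.68.

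Adding Flt3-ITD to the fusion gave the most one-sided of the 7 H3K27ac comparisons of distal regions, except at −log10 q of at least 5, where Flt3-ITD against wild type had 91.7%. Against NUP98-HOXD13, Flt3-ITD/NUP98-HOXD13 gained 20 distal H3K27ac regions near the genes and lost 4, a gained share of 83.3% (64.1 to 93.3%), with 57.3% over all distal regions. Of all distal regions 31.6% were gained and 23.5% lost, against 48.8% and 9.76% near these genes. Both lists came from 4 samples. Counted as single peaks, NUP98-HOXD13 held 36 distal ones near the genes and Flt3-ITD/NUP98-HOXD13 held 39. Psmb8 and Rsad2 gained 3 regions each. The share was between 83.3 and 88.9% under each of the 7 alternatives, the last being 8 of 9 regions at −log10 q of at least 5. Under these alternatives no share over all distal regions was computed to set beside it. Of the 20 gained regions 13 were in no other list, and their fold enrichment in Flt3-ITD/NUP98-HOXD13 was low, from 2.87 to 4.31 over the 20.

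Adding Flt3-ITD to Runx1-het gave 26 gained and 10 lost (72.2%, 56.0 to 84.2%), close to the 65.7% of all distal regions (44.7% gained and 23.3% lost). Sp100 gained 4 regions, and Ifitm3 gained 3, of which 2 were distal and the other its promoter. At −log10 q of at least 5 this share was 40.0% (4 of 10), so its direction rested on weak peaks.

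**Figure D4:**
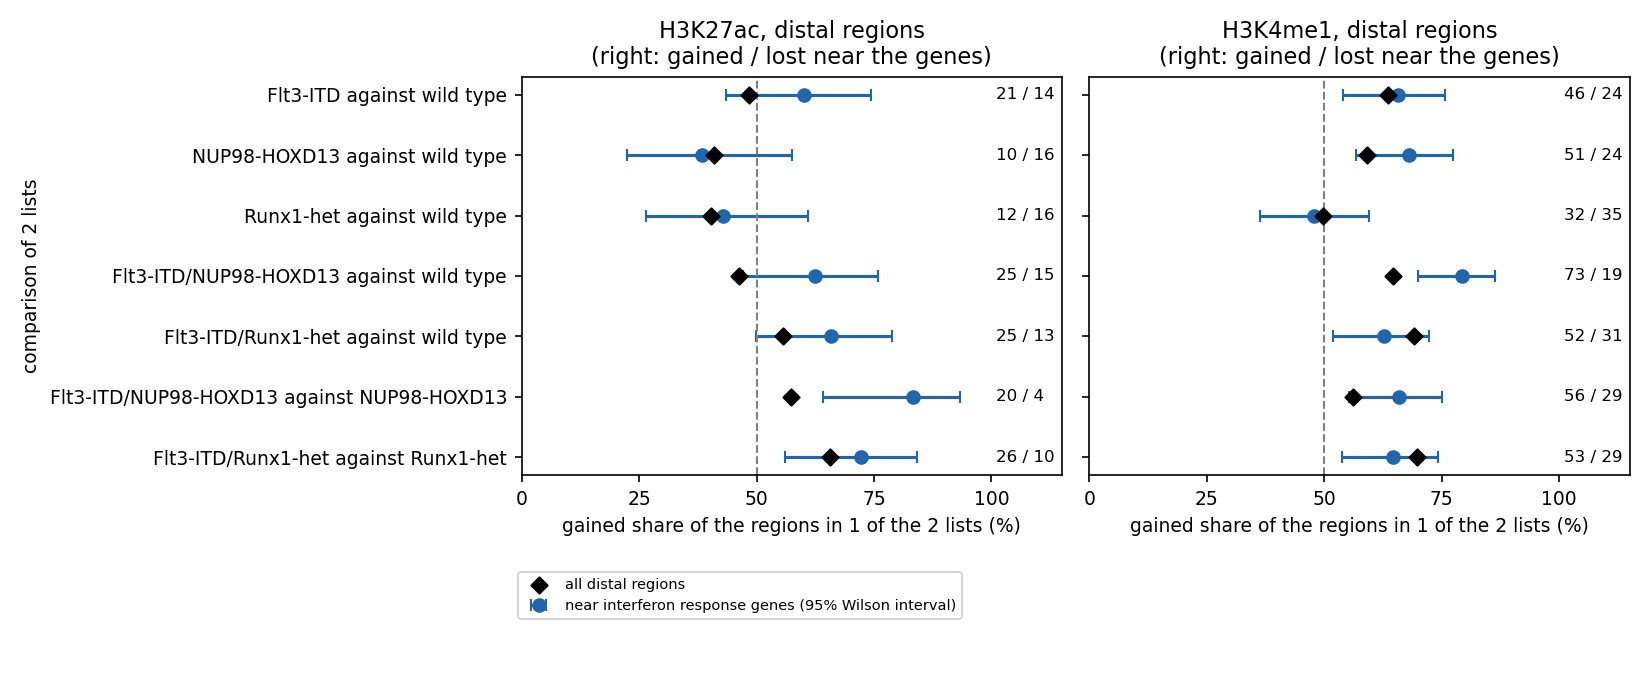
Gained share (%) of the distal regions held by 1 of 2 lists, for 7 comparisons and both marks: circles with 95% Wilson intervals are regions near interferon response genes, diamonds all distal regions, and the numbers at the right count gained and lost regions near the genes. The interval leaves out the diamond in 3 comparisons, all of Flt3-ITD/NUP98-HOXD13: H3K27ac against NUP98-HOXD13 (83.3%, diamond 57.3%), H3K27ac against wild type (62.5%, diamond 46.3%) and H3K4me1 against wild type (79.3%, diamond 64.7%). In the second of these the interval starts at 47.0%, just above the diamond. The intervals cover counting error only and count regions of 1 gene as separate, so they are no test between genotypes.

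Distal H3K4me1 near the genes was more plentiful, with 227 regions, 29 of them (12.8%, all 9.59%) in every list. Ifitm3 had the most, with 15 regions, then Rtp4 with 13, and Ifit1, Tap1 and Usp18 with 12 each. Flt3-ITD/NUP98-HOXD13 gained 73 against wild type and lost 19, a share of 79.3% (70.0 to 86.4%), with 64.7% over all distal regions (42.6% gained and 23.2% lost). Ifit1, Rtp4, Oas3, Tap1, Samd9l and Cxcl10 gained 4 distal regions each. The share fell to 68.0% with equal-length lists and to 57.1% at −log10 q of at least 5. The 64.7% of all distal regions was not recomputed under either setting. The other comparisons lay near all distal regions: 47.8% in Runx1-het (all 49.7%; 32.6% gained and 33.0% lost), 68.0% in NUP98-HOXD13 (all 59.0%; 40.6% gained and 28.2% lost) and 65.7% in Flt3-ITD (all 63.5%; 41.2% gained and 23.6% lost). The NUP98-HOXD13 share was 22.2% at −log10 q of at least 5, on the other side of 50%. Flt3-ITD/Runx1-het had 62.7% against wild type (all 69.0%; 49.9% gained and 22.5% lost) and 64.6% against Runx1-het (all 69.8%; 49.6% gained and 21.5% lost), and both fell below 50%, to 38.1% and 39.1%, with equal-length lists. That Flt3-ITD/Runx1-het H3K4me1 list was the longest, with 117039 peaks against 72682 to 95907 in the others. Flt3-ITD/NUP98-HOXD13 had 65.9% against NUP98-HOXD13 (all 56.1%; 32.6% gained and 25.5% lost).

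Of the distal H3K4me1 peaks near the genes, those overlapped by an H3K27ac peak of the same genotype, the usual mark of an active enhancer, numbered 31 of 100 in wild type (31%, all 24.3%), 48 of 121 in Flt3-ITD (39.7%, all 29.7%), 39 of 143 in NUP98-HOXD13 (27.3%, all 27.7%), 29 of 91 in Runx1-het (31.9%, all 28%), 61 of 157 in Flt3-ITD/NUP98-HOXD13 (38.9%, all 30.2%) and 54 of 138 in Flt3-ITD/Runx1-het (39.1%, all 28.6%). The 3 lists with Flt3-ITD had the 3 highest shares, but they also had the 3 highest over all distal H3K4me1 peaks, so this order was not particular to these genes. Near the genes the intervals of all 6 overlapped: that of Flt3-ITD ran from 31.4 to 48.6% and that of NUP98-HOXD13 from 20.6 to 35.1%. At −log10 q of at least 5 this order was not kept near the genes, with 42.4% in wild type, 60.6% in Flt3-ITD, 17.9% in Flt3-ITD/Runx1-het and 50% in Flt3-ITD/NUP98-HOXD13. Over all peaks it was not computed at that threshold.

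The other genes of the pathway showed where it was marked upstream of these targets. None of 5 interferon genes (Ifnb1, Ifng, Ifna4, Ifnk and Ifne) had an H3K27ac promoter peak in any list. The receptor genes Ifnar1, Ifnar2, Ifngr1, Ifngr2 and Il10rb had one in all 6, and Ifnlr1, the interferon lambda receptor, in none. Of the kinases, Jak1 and Jak2 were in all lists, and Tyk2 was missing from Flt3-ITD and Runx1-het. Irf2, Irf3 and Irf5 were in all lists, and Irf4 and Irf8 in none.

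Among 9 sensing genes in the annotation, wild type and Runx1-het each had 5 marked, NUP98-HOXD13 and Flt3-ITD each had 8, Flt3-ITD/Runx1-het had 6 and Flt3-ITD/NUP98-HOXD13 had 7. Mavs and Myd88, the adaptors of the RNA sensors and of the Toll-like receptors, had a promoter peak in every mutant and not in wild type. Of all H3K27ac promoter regions, 4.11% were held in that way. Tlr7, which senses single-stranded RNA and also marks plasmacytoid dendritic cells, had one in Flt3-ITD (3.34), NUP98-HOXD13 (2.69) and Flt3-ITD/NUP98-HOXD13 (9.13), and Tlr9 in the same lists (3.53, 2.77 and 3.03). Of 5 negative regulators, 4 were marked in every list and Socs3 in Flt3-ITD/Runx1-het alone. Of 7 antigen presentation genes, 5 to 7 were marked, and Nlrc5, the activator of MHC class I genes, was missing from wild type alone.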

How the data were processed

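ChIPmentation peaks of H3K27ac and H3K4me1 were analysed in 39 of 40 samples, and the 1 input sample was not analysed here. The authors deposited 1 narrowPeak list per genotype and mark, pooled over 3 samples in 9 groups and 4 in 3 groups. BWA, MACS2 and the builds mm10 and GRCm38 are named in the submitters' processing notes, with versions and settings not given in the sources used here. Each deposited peak has a score, a fold enrichment (a ratio), a −log10 p-value, a −log10 q-value and a summit position, as the format defines them. Read depth is unknown, so list length and peak strength can follow depth, and n is 1 list per group.

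Peaks were given to the nearest of 41408 start sites of 21851 protein-coding genes (GENCODE mouse release 21, basic set). A promoter peak lay within 1 kb, and a peak was left out beyond 50 kb. Where several peaks covered a promoter, 1 was taken per gene and list. Peaks of a mark overlapping by 1 bp were merged into regions, which were gained or lost when held by 1 list of a pair. The scripts used Python 3.11.15, pandas 2.3.3, NumPy 2.4.6, SciPy 1.17.1 and matplotlib 3.10.9 and were tested on simulated data. Promoter windows came from RefSeq and were absent for Dhx58, Zbp1, Oas2, Usp18, Mx1, Parp14, Rtp4, Ifi27 and Ifi27l2a.

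The genes and lists were chosen with earlier results of these data known. Genes are given in full when their H3K27ac promoter peak was in some lists only, or when their median fold enrichment was among the 3 highest of those in all lists. The 3 lowest, Ifit1, Psmb8 and Oas3, are given by range. Distal H3K27ac regions that followed a genotype factor are given in full. Genes with the most distal regions, gains or losses are named. Alternatives were equal-length lists, −log10 q of at least 5, promoters of 2 kb, a reach of 100 kb, distance from the summit, at least 0.5 of a region covered and direct comparison of pairs of lists. Ranking settings and the full transcript set were added after seeing the data. Some other genes of the pathway are not reported here.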

Additional observations from a re-analysis of the deposited data

Results flagged for a closer look

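The promoter of Mx1 changed in opposite directions when Flt3-ITD was added to different backgrounds. Its H3K27ac fold enrichment was 5.0 in wild type and no peak was listed in Flt3-ITD, whereas Runx1-het had none and Flt3-ITD/Runx1-het had 5.13. NUP98-HOXD13 had 5.64 and Flt3-ITD/NUP98-HOXD13 had 6.78, so that pair showed neither a gain nor a loss. At −log10 q of at least 5 the wild-type peak was not kept, and the loss with Flt3-ITD went with it.

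The promoter of Cxcl10 went the other way. It had no peak in wild type and 4.39 in Flt3-ITD, but was listed at 4.0 in NUP98-HOXD13 and 4.31 in Runx1-het and had no peak in either double mutant. At −log10 q of at least 5 the Flt3-ITD peak alone was kept. With 1 pooled list per genotype, neither difference was tested.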

How the results depend on the processing

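No paired analysis was possible because each list pools all samples of its group, and for the same reason no sample could be left out. Of 316 alternative values for 58 results, 265 lay within the interval of the value reported and 44 moved beyond it. Another 7 crossed 50% where the interval of the reported share had left it out. Some intervals were wide, such as 15.0 to 85.0% for the H3K27ac promoter share of Flt3-ITD/NUP98-HOXD13 against NUP98-HOXD13, so a value within one need not be close. Counted without regard to intervals, gained shares lay on the other side of 50% for 9 of 28 at −log10 q of at least 5, 4 with equal-length lists, 3 with at least 0.5 of a region covered and 0 under the other settings. The cause was not tested. Shares are gained regions among those gained or lost, unless stated. Under the alternatives, gained shares were computed near these genes only. Whether the shares over all regions moved in the same way was not tested.

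With equal-length lists, the H3K27ac distal share was 75% in Flt3-ITD, 61.9% in Runx1-het and 76.5% in Flt3-ITD/NUP98-HOXD13 against wild type. The H3K4me1 distal share was 38.1% in Flt3-ITD/Runx1-het, 53.2% in Flt3-ITD and, for Flt3-ITD/NUP98-HOXD13, 68.0% against wild type, and 39.1% for Flt3-ITD/Runx1-het over Runx1-het. For Flt3-ITD/Runx1-het the H3K4me1 promoter share was 50% against wild type and 52.6% against Runx1-het, and 38.1% of the genes had an H3K4me1 promoter peak.

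At −log10 q of at least 5, the H3K27ac promoter share was 100% in Flt3-ITD against wild type and in Flt3-ITD/NUP98-HOXD13 against NUP98-HOXD13. The H3K27ac distal share was 75% in Runx1-het, 60.0% in NUP98-HOXD13, 91.7% in Flt3-ITD and 78.6% in Flt3-ITD/NUP98-HOXD13 against wild type, and 40.0% for Flt3-ITD/Runx1-het over Runx1-het. H3K4me1 promoter peaks stood at 14.3% of the genes in wild type and Flt3-ITD, 7.14% in NUP98-HOXD13 and Flt3-ITD/Runx1-het, 11.9% in Runx1-het and 19.0% in Flt3-ITD/NUP98-HOXD13. The H3K4me1 promoter share was 22.2% in NUP98-HOXD13, 50% in Flt3-ITD and 33.3% in Flt3-ITD/Runx1-het against wild type, 85.7% for Flt3-ITD/NUP98-HOXD13 over NUP98-HOXD13 and 44.4% for Flt3-ITD/Runx1-het over Runx1-het. The H3K4me1 distal share was 48.5% in Flt3-ITD/Runx1-het, 22.2% in NUP98-HOXD13 and, for Flt3-ITD/NUP98-HOXD13, 57.1% against wild type, 88.0% for Flt3-ITD/NUP98-HOXD13 over NUP98-HOXD13 and 53.1% for Flt3-ITD/Runx1-het over Runx1-het. Near these genes lay 0.144% of the distal H3K4me1 peaks of Runx1-het. Distal H3K4me1 peaks overlapped by H3K27ac made up 42.4% in wild type, 10.0% in NUP98-HOXD13, 60.6% in Flt3-ITD, 17.9% in Flt3-ITD/Runx1-het and 50% in Flt3-ITD/NUP98-HOXD13.

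With promoters of 2 kb, H3K4me1 promoter peaks stood at 61.9% of the genes in wild type, 66.7% in Runx1-het, 78.6% in Flt3-ITD and 83.3% in Flt3-ITD/NUP98-HOXD13, NUP98-HOXD13 and Flt3-ITD/Runx1-het. Near these genes then lay 0.195% of the distal H3K27ac peaks of Flt3-ITD/Runx1-het and 0.175% of the distal H3K4me1 peaks of NUP98-HOXD13. With a reach of 100 kb the share of distal H3K4me1 peaks was 0.21% in Flt3-ITD/NUP98-HOXD13. With at least 0.5 of a region covered, the H3K27ac promoter share was 100% in Flt3-ITD and 91.7% in Runx1-het against wild type, and 90.0% in Flt3-ITD/NUP98-HOXD13 against NUP98-HOXD13.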
